A study of Mus musculus with 12 samples.

Results

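The let-7 and miR-98 family was followed in mouse liver over 2 days of light and dark. It comprised the mature forms mmu-let-7a, mmu-let-7b, mmu-let-7c, mmu-let-7d, mmu-let-7e, mmu-let-7f, mmu-let-7g, mmu-let-7i and mmu-miR-98 (written without mmu below), chosen by their names on the arrays, 9 of the 650 miRNA entries printed there and 9 of the 139 entries detected on at least 6 arrays and tested. Adult mice, with no genotype or treatment named in the labels, were kept on days with 12 h of light and 12 h of darkness, and ate and drank freely. Strain and sex are not given in the sources used here. Livers were collected every 4 h from ZT18 to ZT62, where zeitgeber time (ZT) is counted in hours from lights on. Total RNA of 2 livers was pooled for each time and hybridised to 1 one-colour Agilent array, 12 arrays in all. Counted from lights on, the clock times were 2, 6, 10, 14, 18 and 22 h, and each of these 6 had 2 arrays, 24 h apart. There were 6 dark arrays and 6 light arrays, and the later array of a clock time is called cycle 2 and the earlier one cycle 1. Each group thus consisted of pools, so the p-values measure the spread between pools of livers and between arrays, not between mice. Arrays of a group also came from different clock times or cycles, and whatever a fit left of these differences counted in that spread.

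MicroRNAs of the let-7 family repress messenger RNAs that carry sites complementary to their seed, the bases near the 5′ end that find the target. The family is abundant in differentiated adult tissues, where it restrains growth genes such as Ras, Myc and Hmga2 and components of insulin and IGF signalling. The RNA-binding protein LIN28 blocks the maturation of let-7 precursors in embryonic cells and is in turn a let-7 target. In mouse liver, let-7c has been linked to the lipid-sensing nuclear receptor PPARα, whose activation lowers it. Several members are made from shared primary transcripts, and miR-98 lies beside a let-7f locus within an intron of the ubiquitin ligase gene Huwe1.

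The mature sequences show what the array had to tell apart. They are RefSeq sequences of the mouse assembly GRCm38.p6, matched by name for 9 of 9 members, with bases 2 to 8, the seed, in capitals.
let-7a: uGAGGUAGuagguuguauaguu
let-7b: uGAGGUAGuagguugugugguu
let-7c: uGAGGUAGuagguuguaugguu
let-7d: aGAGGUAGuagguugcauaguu
let-7e: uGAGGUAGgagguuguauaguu
let-7f: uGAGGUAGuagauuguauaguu
let-7g: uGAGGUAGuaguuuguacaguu
let-7i: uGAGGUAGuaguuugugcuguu
miR-98: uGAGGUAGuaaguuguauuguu
All 9 carried the seed GAGGUAG, which 11 of the 1679 mature mouse names in the RefSeq table share, these 9 included, and they differed in their remaining bases. Counting positions from 1 at the 5′ end and giving the base of let-7a first, let-7c differed from let-7a by A19G, let-7e by U9G and let-7f by G12A. A pair of changes separated let-7a from let-7b (A17G and A19G), from let-7d (U1A and U16C), from let-7g (G12U and U18C) and from miR-98 (G11A and A19U). let-7i differed by G12U, A17G, U18C and A19U. Probe sequences were not used here, so how far a probe also bound a relative that differs by 1 base was not tested.

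Loci of several mature sequences lay close together, and distances between them are given from hairpin to hairpin. Mirlet7a-2, another let-7a locus, is not listed. On the minus strand of chromosome 13, let-7a (Mirlet7a-1, chr13:48538239-48538260), let-7f (Mirlet7f-1, chr13:48537889-48537910) and let-7d (chr13:48536078-48536099) lay together, the Mirlet7a-1 and Mirlet7d hairpins being 2065 bases apart. On the plus strand of chromosome 15, let-7c (Mirlet7c-2, chr15:85706616-85706637) and let-7b (chr15:85707325-85707346) had hairpins 622 bases apart. A second let-7c locus (Mirlet7c-1, chr16:77599672-77599693, plus strand) stood beside Mir99a, and let-7e (chr17:17830366-17830387, plus strand) beside Mir99b and Mir125a. On the X chromosome, a second let-7f locus (Mirlet7f-2, chrX:151912353-151912374) and miR-98 (chrX:151913229-151913250) shared the plus strand, with hairpins 786 bases apart. let-7g (chr9:106178846-106178867, plus strand) and let-7i (chr10:122985698-122985719, minus strand) had no other member beside them. A mature form with several loci cannot be assigned to one of them by its level.

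The tissue carried the markers of liver. All 5 hepatocyte markers (miR-122, miR-192, miR-194, miR-148a and miR-802) were detected on 12 of 12 arrays, while 0 of 4 striated muscle, 0 of 3 neuronal and 0 of 3 pancreatic markers were detected on any. Of the 5, miR-802 was dim, at scaled intensities from 20.6 to 89.5. Some markers of other cells were detected on 12 of 12 arrays too, such as miR-451 (red cell), miR-142-3p (leukocyte), miR-126-3p (endothelial) and miR-143 (mesenchymal). Others, such as miR-150, miR-155 and miR-145, were detected on none. Arrays detected 132 to 162 entries, their scaling factors lay between 0.865 and 1.1, and 0 spots were saturated. The 8 arrays from ZT18 to ZT46 were on slide 1 and the remaining 4, all of cycle 2, on slide 2, and all arrays of a slide shared 1 scan. In bulk RNA, fewer cells of a type and less of a miRNA per cell cannot be told apart.

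All members were detected on every array and none fell to the floor of 22.2 intensity units, below which scaled signals were set to that value. Each had 2 probes with 10 spots per array, and values below are scaled intensities of the brighter probe unless the dimmer one is named. Intensity also depends on the probe, so the members' levels are not ranked here. mmu-let-7a had its lowest intensity of 2532 at ZT30, a median of 2683 and its highest of 2807 at ZT34, a 1.11-fold range over the 12 arrays. mmu-let-7f has a locus beside Mirlet7a-1 in the chromosome 13 cluster and another on the X chromosome. It ranged 1.21-fold, with 3084 at ZT30, a median of 3555 and 3720 at ZT34. mmu-let-7d of the chromosome 13 cluster ranged 1.17-fold, with 688 at ZT30, a median of 747 and 806 at ZT22. The lowest array was ZT30 for the 3 members with a locus in this cluster, and also for let-7c, let-7g, let-7i and miR-98. let-7c had 1334 at ZT30, a median of 1399 and 1552 at ZT34, a 1.16-fold range. let-7b, its neighbour on chromosome 15, had 825 at ZT62, a median of 899 and 1016 at ZT34, a 1.23-fold range. let-7g, from a locus of its own, had 1443 at ZT30, a median of 1529 and 1649 at ZT34, a 1.14-fold range. let-7i, the other member with a locus of its own, had 259 at ZT30, a median of 276 and 296 at ZT22, a 1.14-fold range. The probes of these 7 members averaged over 200 intensity units, and the 7 are called bright below.

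Both remaining members, with dimmer probes, varied more. mmu-let-7e, the member transcribed with miR-99b and miR-125a, ranged 1.41-fold, with 83.1 at ZT26, a median of 99.1 and 117 at ZT42. mmu-miR-98 ranged 1.57-fold, with 38.7 at ZT30, a median of 52.0 and 60.9 at ZT50. The SD over arrays was 0.16 log2 units for both, against 0.05 to 0.08 for the other 7 members and a median of 0.10 over all 139 entries. Spots of a probe on one array gave a median standard error of 0.02 to 0.04 log2 units for the members other than miR-98 and 0.05 for miR-98. For each member the SD over arrays exceeded this standard error.

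**Figure D1:**
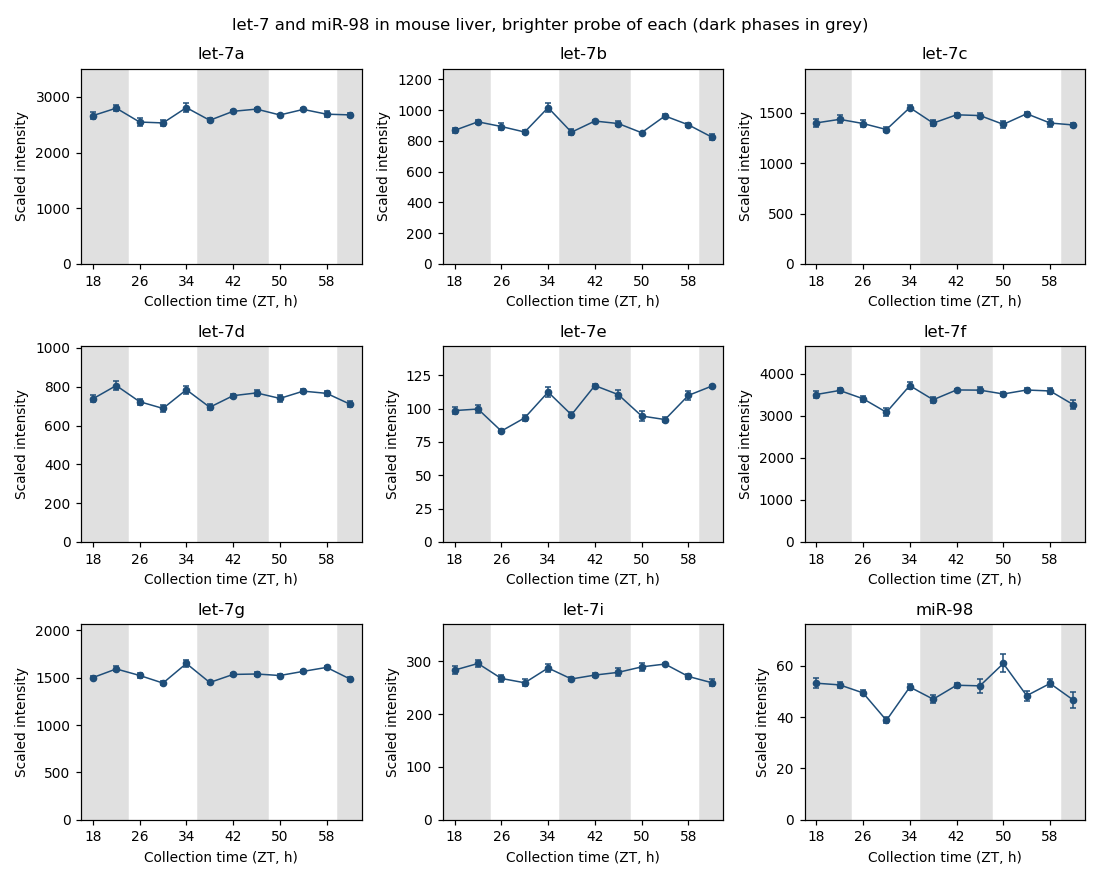
Scaled intensity (y axis, from 0, its own scale in each panel) against collection time in ZT hours for the brighter probe of each member, 1 array per point, with bars of 1 standard error over the spots of the probe. The 7 bright members range 1.11- to 1.23-fold over the 12 arrays, while let-7e and miR-98 range 1.41- and 1.57-fold.

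The second probe of a member gave a repeat of each measurement on the same array. Both probes of a member moved together over the 12 arrays, with Pearson r of 0.94 for let-7b, 0.87 for miR-98, 0.85 for let-7i, 0.83 for let-7a and 0.82 for let-7e. For let-7c, let-7g, let-7d and let-7f r was 0.76, 0.75, 0.75 and 0.70. Spearman coefficients lay between 0.50 (let-7f) and 0.90 (let-7b). Probes of a member share the array, its labelling and its scaling, so these coefficients describe the arrays and carry no test. The dimmer probe of let-7e ranged 1.53-fold, again from ZT26 to ZT42, and that of miR-98 1.59-fold, again from ZT30 to ZT50, although it was detected on 11 of 12 arrays.

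The series is about miRNAs and the circadian rhythm of liver, so a 24-h rhythm was looked for first. No member passed the test, and the fitted rhythms of the bright members were small. The fitted peak-to-trough fold was 1.01 for let-7c, 1.02 for let-7a and let-7g, 1.03 for let-7d and let-7f, 1.04 for let-7b and 1.05 for let-7i. Upper 95% limits of these folds lay between 1.11 (let-7a) and 1.19 (let-7b). let-7e was fitted at 1.21 with an upper limit of 1.50 and its maximum 15.1 h after lights on, and miR-98 at 1.13 with an upper limit of 1.45 and its maximum at 21.3 h. Over the members the median fitted fold was 1.03, beside 1.08 over all 139 entries. The upper limit was under 1.25 for 7 of 9 members, beside 54 of the 109 tested entries that were never at the floor. These 7 were the bright members, and their limits were not compared with those of entries of like brightness.

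By limma's F test of a 24-h rhythm, 0 of 9 members had an adjusted p under 0.05, beside 0 of 139 entries (0%). At an unadjusted p under 0.05 there were 0 members, against 3.6% of all entries. The smallest p among members was that of let-7e (0.0706, adjusted p = 0.849 in limma). For a second rhythm with a period of 12 h, 0 of 9 members passed in limma, beside 0% of all entries. At an unadjusted p under 0.05 there were 2 members, let-7d and let-7g, beside 5.76% of all entries, with fitted 12-h folds of 1.11 and 1.09 and an adjusted p of 0.622 for each in limma. 

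**Figure D2:**
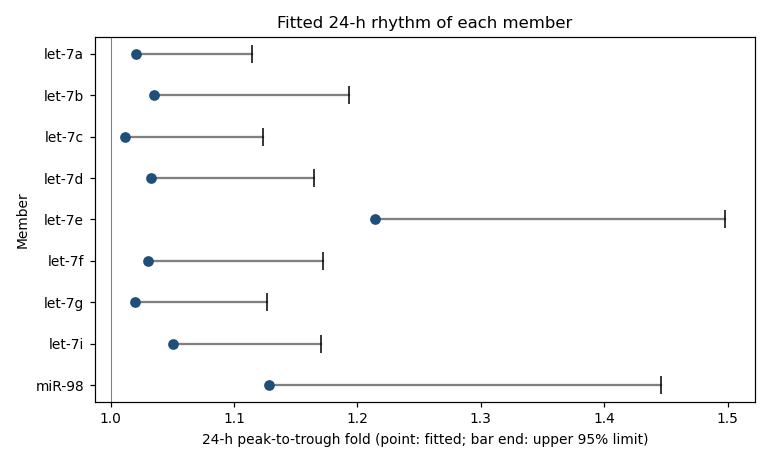
Fitted 24-h peak-to-trough fold of each member (point) and its upper 95% limit (bar end), on a linear fold axis that starts at 1. The 7 bright members have limits of at most 1.19, let-7e has 1.50 and miR-98 1.45.

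Clock times were compared next, with 2 arrays each. let-7e had intensities of 83.1 and 94.4 at 2 h after lights on, 93.0 and 91.8 at 6 h, 112 and 110 at 10 h, 95.4 and 117 at 14 h, 98.5 and 117 at 18 h, and 99.7 and 111 at 22 h, cycle 1 before cycle 2. The 4 arrays at 2 and 6 h were its 4 lowest, the highest of them at 94.4 and the lowest of the other 8 at 95.4. This grouping was singled out after its values were seen. The dimmer probe of let-7e did not show it, with 66.9 at ZT50 and 53.97 at ZT22, so 3 of its 4 lowest arrays came from 2 and 6 h.

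miR-98 measured 49.4 and 60.9 at 2 h, 38.7 and 48.4 at 6 h, 51.7 and 53.1 at 10 h, 47.0 and 46.6 at 14 h, 53.2 and 52.4 at 18 h, and 52.6 and 52.2 at 22 h. Arrays of a clock time were close from 10 to 22 h and lay apart at 2 and 6 h. let-7g measured 1523 and 1523 at 2 h, 1443 and 1566 at 6 h, 1649 and 1608 at 10 h, 1449 and 1485 at 14 h, 1500 and 1534 at 18 h, and 1592 and 1539 at 22 h. Its means of 2 arrays were highest at 10 h, at 1629 ± 29.2, and lowest at 14 h, at 1467 ± 25.9 (SD, n = 2 each), and the arrays of these clock times, picked as its extremes, did not overlap. For let-7b, let-7c and let-7f the highest and lowest means also fell at 10 and 14 h. Clock-time means spanned 1.06- to 1.14-fold in the 7 bright members, 1.25-fold in let-7e and 1.27-fold in miR-98, with a median of 1.11 over the members and 1.15 over all entries. In limma's F test over 6 clock times 0 of 9 members passed, beside 0% of all entries, and 0 members had an unadjusted p under 0.05, beside 4.32%. The smallest p among members was that of let-7g (0.068, adjusted p = 0.805 in limma). For let-7a the 3 lowest clock-time means, at 2 h (2612 ± 89.9), 14 h (2628 ± 68.7) and 6 h (2654 ± 172; SD, n = 2 each) lay closer together than the SDs of their arrays.

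Dark arrays were then set against light arrays, which in nocturnal mice also separates activity and feeding from rest. let-7e had 95.4, 105 and 117 as its lowest, median and highest intensity in the dark, against 83.1, 93.7 and 112 in the light. It was above the light mean on 5 of 6 dark arrays, and the groups overlapped. Its means were 6.73 ± 0.13 log2 units in the dark and 6.60 ± 0.17 in the light (SD, n = 6 each), a fold of 1.09 with a 95% interval of 0.962 to 1.24 (limma adjusted p = 0.740). let-7b had 825, 890 and 929 in the dark, against 853, 899 and 1016 in the light, with a fold of 0.970 (95% interval 0.902 to 1.04). let-7g had 1449, 1517 and 1592 in the dark, against 1443, 1545 and 1649 in the light, with a fold of 0.978 (95% interval 0.930 to 1.03), and 1 of 6 dark arrays stood above the light mean. miR-98 had 46.6, 52.3 and 53.2 in the dark, against 38.7, 50.6 and 60.9 in the light, with a fold of 1.01 (95% interval 0.881 to 1.17). Its light arrays spanned the dark ones on both sides.

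For the remaining members, dark over light folds were 1.01 for let-7a (95% interval 0.968 to 1.06), 1.00 for let-7c (0.949 to 1.06) and 0.998 for let-7d (0.936 to 1.06). For let-7f the fold was 1.00 (0.937 to 1.07) and for let-7i 0.993 (0.935 to 1.06). In all, 5 members had a higher and 4 a lower mean in the dark. Their median difference was 0.0031 log2 units, beside -0.02 over all 139 entries, of which 92 were lower in the dark. By limma 0 of 9 members passed an adjusted p of 0.05, beside 0% of all entries, and 0 had an unadjusted p under 0.05, beside 7.91%. Dark and light groups did not overlap for 0 members, beside 0.719% of all entries.

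The sign of these differences depended on the scaling between arrays. Scaling on all probes put the median dark minus light difference of all entries at 0.38 log2 units, and 9 of 9 members then stood higher in the dark. Leaving the family's own probes out of the scaling set left 1 of 9 higher. Without single arrays, 2 (without ZT30) to 7 of 9 were higher in the dark. With normexp background correction the median of all entries was -0.36 and let-7e turned to -0.23. Summed intensities of the hepatocyte markers, mostly miR-122, overlapped, with 35417 to 38925 in the dark and 35299 to 39046 in the light. In limma 0 of these 5 markers passed. miR-148a was lower in the dark by -0.08 log2 units (unadjusted p = 0.0094, adjusted p = 0.355 in limma). It passed once the family's probes were left out of the scaling set. miR-122, miR-192 and miR-194 differed by -0.03, -0.04 and -0.0028 log2 units, and miR-802 by 0.13. The unadjusted limma p of each of these was at least 0.265.

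**Figure D3:**
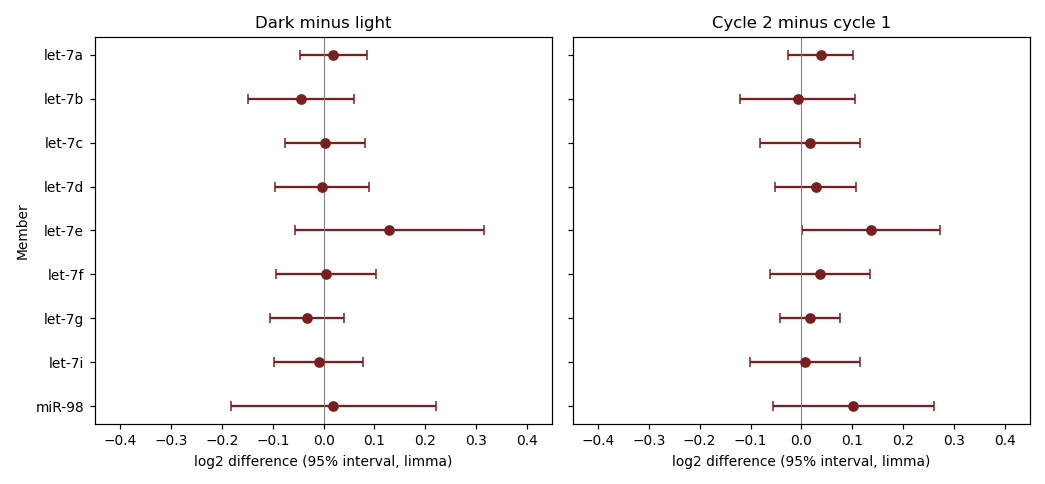
Dark minus light (left) and cycle 2 minus cycle 1 (right) for each member in log2 units, with 95% intervals from limma and a line at 0. All intervals include 0 except that of let-7e between cycles, which runs between 0.0019 and 0.27 before adjustment.

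Levels 24 h apart were compared within clock times. let-7e had 91.8, 110 and 117 as its lowest, median and highest intensity in cycle 2, against 83.1, 96.9 and 112 in cycle 1, and was higher in cycle 2 in 4 of 6 pairs. It averaged 6.73 ± 0.15 log2 units in cycle 2, against 6.59 ± 0.14 log2 units in cycle 1 (SD over 6 arrays), a fold of 1.10 with a 95% interval of 1.00 to 1.21 (unadjusted p = 0.0478, adjusted p = 0.866 in limma). The difference was 0.14 log2 units by the brighter probe and 0.23 by the dimmer one. miR-98 had 46.6, 52.3 and 60.9 in cycle 2, against 38.7, 50.6 and 53.2 in cycle 1, a fold of 1.07 (95% interval 0.962 to 1.198), higher in 3 of 6 pairs. The folds of the other 7 members lay between 0.995 (let-7b) and 1.03 (let-7a).

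In limma 0 of 9 members passed between cycles, beside 0% of all entries. At an unadjusted p under 0.05 there was 1 member, let-7e, beside 3.6% of all entries. Cycle 2 had the higher mean for 8 of 9 members, beside 83 of 139 entries. It was higher in 6 of 6 or 0 of 6 pairs for 0 members, beside 6.47% of all entries. Without ZT30 or ZT54, the pair at 6 h, 3 of 9 members were higher in cycle 2. With the slide as a block let-7e differed by 0.20 and miR-98 by -0.02 log2 units between cycles, and 5 of 9 members were higher in cycle 2. Scaling on all probes put the median difference of all entries between cycles at -0.50 log2 units, and 0 of 9 members were then higher in cycle 2. The dark minus light difference was also tested between cycles: 0 of 9 members passed in limma, beside 0% of all entries, and 0 had an unadjusted p under 0.05, beside 2.16% (1.44% with the higher and 0.719% with the lower difference in cycle 2).

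Members moved together from array to array. On the ZT34 array 9 of 9 members stood above their own means, by 0.04 (miR-98) to 0.18 (let-7b) log2 units. On the ZT30 array 0 of 9 did, with deviations between -0.07 (let-7b) and -0.38 (miR-98), and on ZT38 again 0 of 9, down to -0.10 (let-7d). ZT26 also had 0 of 9 above their means, with let-7e lowest at -0.29, and ZT46 had 9 of 9. On the arrays 24 h later, 3 of 9 members (ZT50, after ZT26), 7 of 9 (ZT54, after ZT30), 7 of 9 (ZT58, after ZT34) and 1 of 9 (ZT62, after ZT38) stood above their means, and on ZT22, 24 h before ZT46, 8 of 9 did. The median deviation of all 139 entries was -0.02 on ZT26, -0.07 on ZT30, 0.05 on ZT34 and -0.06 on ZT38, each with the sign of the members' mean, and -0.00064 on ZT46, where the members' mean was 0.05.

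**Figure D4:**
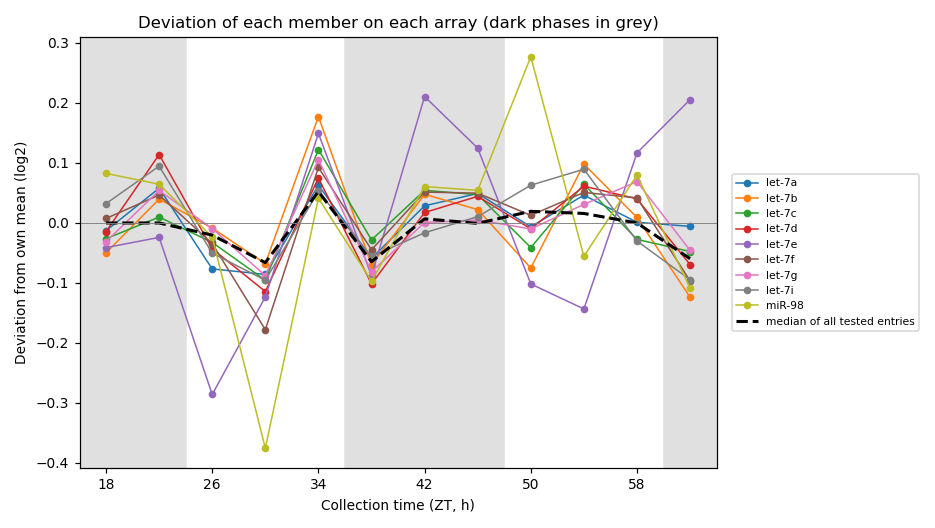
Deviation of each member from its own mean in log2 units against collection time in ZT hours, with the median deviation of all 139 tested entries as a dashed line. The members lie above 0 together at ZT34 and below it together at ZT30 and ZT38, and let-7e and miR-98 leave the group on several arrays.

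Pearson r over the 12 arrays had a median of 0.70 over the 36 pairs of members, and 35 pairs were above 0. Among the 4950 pairs of the 100 other entries never at the floor the median was 0.16. Pairs share arrays and scaling, so these are descriptions. The closest pairs were let-7d with let-7g (0.90), let-7b with let-7c (0.90) and let-7a with let-7d (0.89). Of pairs with neighbouring loci, let-7d and let-7f had r of 0.88 (Spearman 0.87) and let-7a and let-7f 0.82 (Spearman 0.85). let-7f and miR-98 had r of 0.76, with a lower Spearman coefficient of 0.41. let-7d and let-7g, from different chromosomes, were as close as the neighbours let-7b and let-7c. let-7e stood apart, with a median r of 0.30 with the other members and -0.08 with let-7i.

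Split between 2 and 3 differing bases, pairs close in sequence and pairs further apart had similar medians. The 14 pairs that differ by 1 or 2 bases had a median r of 0.72, and the 22 pairs that differ by 3 or more bases one of 0.68. Among the former, the median was 0.82 for the 4 pairs that differ by 1 base and 0.66 for the 10 that differ by 2. Binding of a probe to a relative was not tested by this. The shared movement depended on the scaling: once the median deviation of the other entries on each array was taken off, the median r over members was 0.36, beside -0.02 over pairs of other entries, and with quantile normalization it was 0.12. Summed marker intensities also moved with the family mean over the 12 arrays, with r of 0.73 for the hepatocyte list, 0.69 for the endothelial list and 0.67 for the striated muscle list, of which 0 of 4 markers were detected. For the other 6 lists r lay between -0.0075 (pancreas) and 0.38 (mesenchymal and smooth muscle). A sum follows its brightest marker, which was miR-122 for hepatocytes and miR-126-3p for endothelium. Taken singly, r was 0.71 for miR-122, 0.43 for miR-192, 0.37 for miR-148a and 0.31 for miR-194. It was 0.65 for miR-126-3p and 0.61 for miR-126-5p. miR-802, at the floor on 2 arrays, was left out of these. The part of these lists in the shared movement was not tested.

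**Figure D5:**
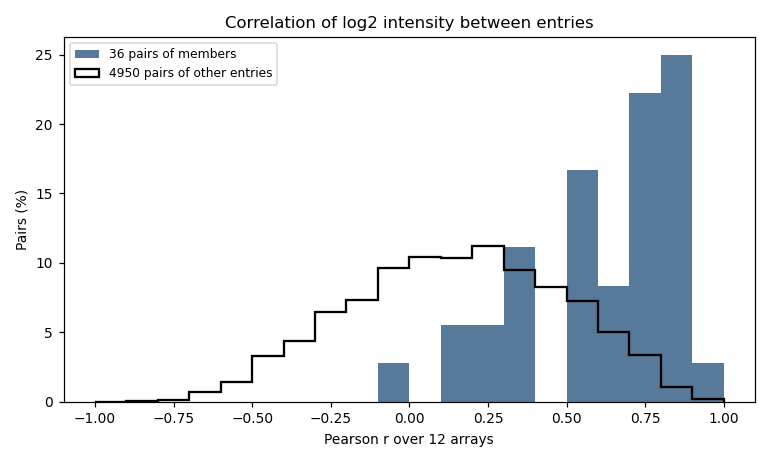
Share of pairs in percent (y axis) by Pearson r over the 12 arrays (x axis), for the 36 pairs of members (filled) and the 4950 pairs of 100 other entries (outline). The members' pairs have a median of 0.70 and the other pairs one of 0.16.

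Ratios within an array do not depend on a scaling factor. Relative to the mean log2 intensity of the other members, let-7f, let-7a, let-7d, let-7g and let-7c kept to SDs of 0.03 to 0.04 log2 units over the 12 arrays, and let-7i and let-7b to 0.05 and 0.06. let-7e and miR-98 had SDs of 0.15 and 0.13 and ranges of 0.53 and 0.57. let-7e was lowest against the rest at ZT26 and highest at ZT62, by -0.25 and 0.28 around its mean. miR-98 was lowest at ZT30 and highest at ZT50, by -0.27 and 0.30. With normexp the median of these SDs over members was 0.22, against 0.04 with the signals used.

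The non-members whose pattern was most like the members' mean deviation were miR-322 (Pearson r 0.90, Spearman 0.89), miR-26b (0.84 and 0.71), miR-23b (0.80 and 0.92), miR-22 (0.80 and 0.82) and miR-107 (0.80 and 0.83), over 12 arrays and out of 100 entries. Without the 2 arrays farthest from the median of the members' mean deviation, r was 0.87, 0.80, 0.66, 0.73 and 0.78 in the same order. miR-322 was dim, with a mean intensity of 38.2.

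Passenger strands of the precursors, marked with a star, were near background. Of 7 on the arrays, let-7b* was detected on 2 arrays and let-7c-1*, let-7f* and let-7i* on 1 each. let-7a*, let-7d* and let-7g* were detected on none, and 0 of 7 reached the tests. The highest signal of any star form was 55.2, for let-7b*. Of 9 entries made from primary transcripts that also hold a member, 5 could be tested, and 0 of 5 passed the 24-h, the dark minus light or the cycle test in limma. miR-99a, beside let-7c-1, had 178, 190 and 209 as its lowest, median and highest intensity, a 24-h fold of 1.02 (upper limit 1.13) and r with let-7c of 0.65 (Spearman 0.40). miR-125b-5p, with a locus (Mir125b-2) further along that transcript, had 435, 482 and 535, and r with let-7c of 0.67 (Spearman 0.72). miR-100, whose locus neighbours let-7a-2, had 59.1, 61.0 and 67.8.

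The transcript of let-7e gave dim signals. miR-125a-5p had 32.1, 38.02 and 44.3, a cycle 2 over cycle 1 fold of 1.12 (unadjusted p = 0.084, adjusted p = 0.866 in limma) and r with let-7e of 0.69 (Spearman 0.63). miR-99b was at or below the floor on 12 of 12 arrays, and miR-99b* had 12.4, 25.5 and 74.2 and r with let-7e of 0.0094. miR-202-3p, which resembles let-7 at its 5′ end and differs from let-7a within the seed by G8U, was shown for contrast with the family seed.
miR-202-3p: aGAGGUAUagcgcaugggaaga
It lies on the minus strand of chromosome 7 (chr7:139957695-139957716) and had 95.03, 126 and 192 as its lowest, median and highest intensity. Its 24-h fold was 1.16 (upper limit 1.76), and its dark minus light difference was -0.23 log2 units (unadjusted p = 0.11, adjusted p = 0.740 in limma).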

How the data were processed

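MicroRNAs were measured in pooled liver RNA on 12 one-colour arrays. The deposited intensities are linear spot signals, subtracted for background and detrended by Feature Extraction 10.7.3.1 per the file headers (9.5.3.1 per the submitters' processing notes), with no scaling between arrays. The software's flags, of another unit, mark detection and outliers per the file headers. The series value table held the same deposited intensities (largest difference 0). Flagged outlier spots (3.86% to 7.05% of an array) were left out and spots of a probe averaged. Arrays were scaled by the 75th percentile of 157 probes that every array detected (over 0.5 of a probe's spots well above background), floored at 22.2 and put on the log2 scale. The brightest probe stood for an entry. Tests used limma 3.58.1 in R 4.3.3 with an intensity trend, Benjamini-Hochberg adjusted over 139 entries, and were tested on simulated data. The number of arrays limits the precision. Clock time, light and cycle came from the titles. Members and lists were chosen with earlier results of these data known. Named were all members, star forms, neighbours in primary transcripts, miR-202-3p and the 5 most similar other entries. Cell type lists other than liver, muscle, nerve and pancreas had 0 entries past the dark minus light or cycle tests: leukocyte, red cell, endothelial, mesenchymal and epithelial. Alternatives covered scaling, background, probe, floor, filter, slide and single arrays.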

Additional observations from a re-analysis of the deposited data

Results flagged for a closer look

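For let-7f, the ZT62 array stood apart from the other cycle 2 arrays at 11.67 log2 units, the next lowest being 11.78 and the median 11.81. It was the only gap of this kind among 36 groups of 6 arrays, where chance flags about 1 in 20. For miR-98 the dark arrays lay below the light mean in cycle 2 (5.65 against 5.75 log2 units) and above it in cycle 1 (5.67 against 5.53), each of them in its cycle's direction. The difference between cycles was -0.23 log2 units, with a limma unadjusted p of 0.211 and an adjusted p of 0.951, so it was not separated from the spread between arrays.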

How the results depend on the processing

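In 27 alternatives, 26 for the test of dark minus light between cycles, 0 members passed an adjusted p of 0.05 in any limma test. At most 5 of 9 members reached an unadjusted p under 0.05 in any alternative, in the 12-h limma test. Without single arrays, 5 to 16 of all tested entries did so in that test. The count over all entries is not given for the alternative with 5 members, so no 12-h rhythm of the family is read from it. Of the values of single members, 676 stayed within 1 SD of the value reported and 53 moved further. The counts over all entries moved from 0 in some alternatives. Dark minus light gave 2 with the family's probes left out of the scaling set. Dark minus light between cycles gave 1 with quantile normalization. The 24-h, clock-time and 12-h tests gave 1 each with normexp, and clock time gave 3 on slide 1 alone. Leaving out single arrays gave 0 to 2 for dark minus light and 0 to 8 for clock time, with 8 without ZT26, 2 without ZT46 and 1 each without ZT54 and ZT58; the 2 for dark minus light came without ZT30. A clock time left with 1 array was taken to vary like the others. The other tests stayed at 0 there: 24-h, 12-h, cycle, and dark minus light between cycles. The median r over pairs of members, 0.70, became 0.99 with all-probe scaling, 0.12 with quantile normalization, 0.26 with normexp, 0.36 with the median of other entries taken off and 0.0826 with the members' mean set equal, and 0.60 to 0.74 without single arrays. The median SD of a member against the rest, 0.04, became 0.22 with normexp and ranged from 0.037 to 0.043 without single arrays. The cause was not tested. Normexp used the median spot signal in place of the mean one, and this, the dimmer probe, the median taken off and the members' mean set equal were chosen after seeing the data. With all mouse entries the fit had no intensity trend, since most lie at the floor. On slide 1 alone the dark minus light difference between cycles could not be fitted, since it holds no light array of cycle 2. The cycle test held clock time as a term, which pairs the arrays 24 h apart. The titles number no replicates, so no other block than the slide was tried. Dim members, let-7e and miR-98, carry the widest limits.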
